A study of Homo sapiens with 9 samples.

Results

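The transcripts described here are those of 8 subunits of the transcription factor AP-1: FOS, FOSB, FOSL1 and FOSL2 of the FOS family, JUN, JUNB and JUND of the JUN family, and ATF3. They were taken by gene symbol. All 8 were found among the 20777 genes of the counts table, and all 8 passed the filter on low counts that left 13384 genes for testing. The RNA came from LX-2, an immortalised human hepatic stellate cell line labelled as wild type, in 3 groups of 3 libraries: cells with no treatment named in the labels (control), cells given TGF-β, the cytokine that activates stellate cells, and cells given TGF-β and the nucleoside uridine. The labels place both treatments at day 1, and no group received uridine without TGF-β. By the study's methods, TGF-β came first, and uridine was then given in a change of medium. Whether the other groups had the same change of medium is not stated there. The 3 libraries of a group carry separate sample labels, but nothing in the sources used here says that they came from separate cultures, so that p-values measure the spread between these libraries.

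AP-1 is a pair of basic leucine zipper proteins. JUN proteins can pair with each other or with FOS proteins, FOS proteins need a JUN partner, and ATF3 can pair with JUN proteins or with itself. FOS, FOSB, JUN, JUNB and ATF3 are immediate-early genes, which are transcribed within minutes of growth factor, cytokine or stress signals through MAP kinases, serum response factor and CREB. In stellate cells and fibroblasts AP-1 is known for acting with SMAD proteins on TGF-β target genes and for driving matrix protease and cytokine genes.

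The libraries held between 40539751 and 41467124 counted reads. LX-2 libraries expressed 10 of 14 stellate cell markers above 1 FPKM, led by VIM, whereas COL1A2 had at most 1 read in any library and COL3A1 stayed below 1 FPKM in each group mean. Only 3 of 6 hepatocyte markers (not ALB, APOB or TTR) and 3 of 4 endothelial markers (not KDR) were in the counts table. The summed FPKM of these hepatocyte markers did not exceed 0.0985 in any library, and that of these endothelial markers did not exceed 0.417. Among epithelial markers KRT7 alone had a mean above 1 FPKM over all libraries, with a mean of 687 FPKM in control, 1152 in TGF-β and 883 in TGF-β + uridine, and EPCAM was near 0. Among the 4 of 5 leukocyte markers in the counts table CSF1R alone did so, at 2.36, 9.84 and 8.48 FPKM in the same order. LYZ had at most 2 reads. The group means of KRT7 and CSF1R differed in the same direction as those of JUN and JUNB, and their part in the results below was not tested. In bulk RNA, fewer cells of a type and less RNA per cell cannot be told apart. Control replicate 1 stood apart from the other libraries, with a principal component score of −84.7, where the rest lay between −28.9 and 51.8, and with the lowest TMM factor, 0.820. The slope of log2 CPM on GC content differed between control libraries, from −4.10 to 5.65. It also differed within the uridine group, where replicate 3 had −2.69 and replicate 2 had 2.28. With TGF-β alone the range was narrower, −0.32 to 0.54, so that the uridine comparison also holds libraries of unlike slope. JUND (69.7% GC) and JUNB (64.9% GC) had the highest GC content of the 8 subunits, and ATF3 (46.7%) the lowest. Values with this slope as a covariate and without control replicate 1 are given below where they change a call. Without that library the genes called over the whole table numbered 1085 in place of 453 for TGF-β against control and 271 in place of 6 for TGF-β + uridine against TGF-β, and 2413 in place of 714 for TGF-β + uridine against control. Leaving out any one of the other libraries gave 218 to 475, 0 to 4 and 304 to 740.

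Promoter sequence was available for 7 subunits in RefSeq (GRCh38.p14). FOSL1 had no entry, and ATF3 had an entry for each of 2 starts. The 250 bases before each start were searched on both strands for TGACGTCA, the cAMP response element bound by CREB and ATF proteins, for TGACATCA, the related element of the JUN promoter, for TGANTCA, the AP-1 element, and for TGACG, the core of the cAMP response element, which every TGACGTCA also contains. These sequences are shown because the study examined cAMP signalling, which acts through such elements. Each 30-base window below holds the match of the longest motif found (the one nearest to the start), in capitals.
FOS, chr14:75278752-75278781, plus strand: tggttgagcccgTGACGtttacactcattc
FOSB, chr19:45467924-45467953, plus strand: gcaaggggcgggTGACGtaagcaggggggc
FOSL2, chr2:28392780-28392809, plus strand: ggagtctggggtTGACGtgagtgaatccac
JUN, chr1:58784096-58784125, minus strand: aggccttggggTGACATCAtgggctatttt
JUNB, chr19:12791337-12791366, plus strand: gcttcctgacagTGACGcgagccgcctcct
JUND, chr19:18281804-18281833, minus strand: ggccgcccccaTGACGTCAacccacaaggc
ATF3, chr1:212565273-212565302, plus strand: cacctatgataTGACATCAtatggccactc
In FOS the match began 64 bases before the RefSeq start, in FOSB 60 bases, in FOSL2 66 bases and in JUN 67 bases. The match of JUNB began 137 bases, that of JUND 200 bases and that of ATF3 123 bases before the start. JUND held the full TGACGTCA, which 1.65% of all 35116 promoter windows held. JUN and ATF3 held TGACATCA, which 2.38% of the windows held. TGACG was present in 21.2% of windows and any of the 4 motifs in 28.8%. The second ATF3 entry held none of the motifs, and no subunit's entry held TGANTCA, which 6.57% of windows held. A match is a description of these letters, and no factor's binding was measured.

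The longer upstream stretches of FOS, the subunit with the smallest p in the comparison of uridine with TGF-β alone, and of JUNB, the most abundant subunit after TGF-β, are given up to the first start in either annotation, with the motif matches in capitals.
FOS, chr14:75278578-75278773, plus strand: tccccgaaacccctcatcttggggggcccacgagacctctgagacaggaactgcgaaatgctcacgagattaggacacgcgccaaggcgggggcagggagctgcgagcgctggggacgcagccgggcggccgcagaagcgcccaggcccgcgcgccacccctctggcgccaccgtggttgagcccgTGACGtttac
JUNB, chr19:12791236-12791485, plus strand: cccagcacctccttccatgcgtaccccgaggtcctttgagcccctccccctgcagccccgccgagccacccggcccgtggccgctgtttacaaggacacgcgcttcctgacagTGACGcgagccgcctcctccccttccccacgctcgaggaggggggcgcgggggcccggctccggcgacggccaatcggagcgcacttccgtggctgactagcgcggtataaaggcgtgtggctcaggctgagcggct
In GENCODE v29 (GRCh38), FOS spans chr14:75278774-75282230, JUN chr1:58780788-58784327 and JUNB chr19:12791496-12793315. JUND spans chr19:18279760-18281622, FOSB chr19:45467995-45475179, FOSL1 chr11:65892049-65900573, FOSL2 chr2:28392448-28417312 and ATF3 chr1:212565334-212620777. The JUN and FOSL2 windows shown above, which lie before the RefSeq starts, thus fall inside the GENCODE spans of these genes, downstream of the GENCODE starts. FOSB, JUNB and FOSL2 lie within or overlap genes on the other strand (ERCC1, HOOK2 and FLJ31356), and the sources used here do not say whether reads were counted by strand, so that reads of these partners cannot be told apart from theirs.

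The study also measured FOS and JUN in this cell line by RT-qPCR, which was not analysed here. Its primers are shown because they mark which part of each transcript that assay reads.
FOS forward primer, chr14:75279050-75279070: ccggggatagcctctcttact
FOS reverse primer, chr14:75279877-75279895: ccaggtccgtgcagaagtc
JUN forward primer, chr1:58782252-58782272: tccaagtgccgaaaaaggaag
JUN reverse primer, chr1:58782195-58782215: cgagttctgagctttcaaggt
The FOS primers matched exons 1 and 2 within the coding sequence and span 93 bases of transcript. They were found in 6 of 10 annotated FOS transcripts and in no other gene. The JUN primers lie in the coding sequence of its single exon, 78 bases apart end to end, and also matched no other gene.

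Transcript levels between genes were compared as FPKM, reads scaled to gene length and library total. In control cells the order was JUND (52.4 ± 4.98 FPKM, SD, n = 3), JUNB (49.0 ± 1.74), FOSL1 (11.4 ± 0.509), FOSL2 (9.51 ± 1.24), FOS (6.62 ± 0.837), ATF3 (3.35 ± 0.433), JUN (2.58 ± 0.241) and FOSB (0.200 ± 0.0613). The neighbours JUND and JUNB overlapped in their ranges over libraries (48.3 to 57.9 and 47.3 to 50.7 FPKM), whereas the remaining neighbours did not overlap. JUNB and JUND were among the more abundant transcripts, with 93.4% to 97.3% of the listed genes below them. FOSB was the scarcest subunit, with 24 to 52 reads per library.

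After TGF-β the order changed to JUNB (122 ± 0.641 FPKM), JUND (54.9 ± 2.49), JUN (14.0 ± 0.114), FOSL1 (12.1 ± 0.0348), FOSL2 (10.3 ± 0.290), FOS (4.77 ± 0.453), ATF3 (3.30 ± 0.248) and FOSB (0.279 ± 0.0530). JUN moved from the seventh place to the third, and no neighbours in this order overlapped. With uridine added, JUNB stood at 107 ± 4.27 FPKM, JUND at 49.3 ± 0.847, FOSL1 at 14.0 ± 0.902, JUN at 11.4 ± 0.244, FOSL2 at 10.0 ± 0.645, ATF3 at 3.35 ± 0.403, FOS at 2.39 ± 0.125 and FOSB at 0.189 ± 0.0301. FOS thus stood below ATF3 in the uridine group, with ranges of 2.28 to 2.53 and 2.94 to 3.75 FPKM that did not overlap.

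**Figure D1:**
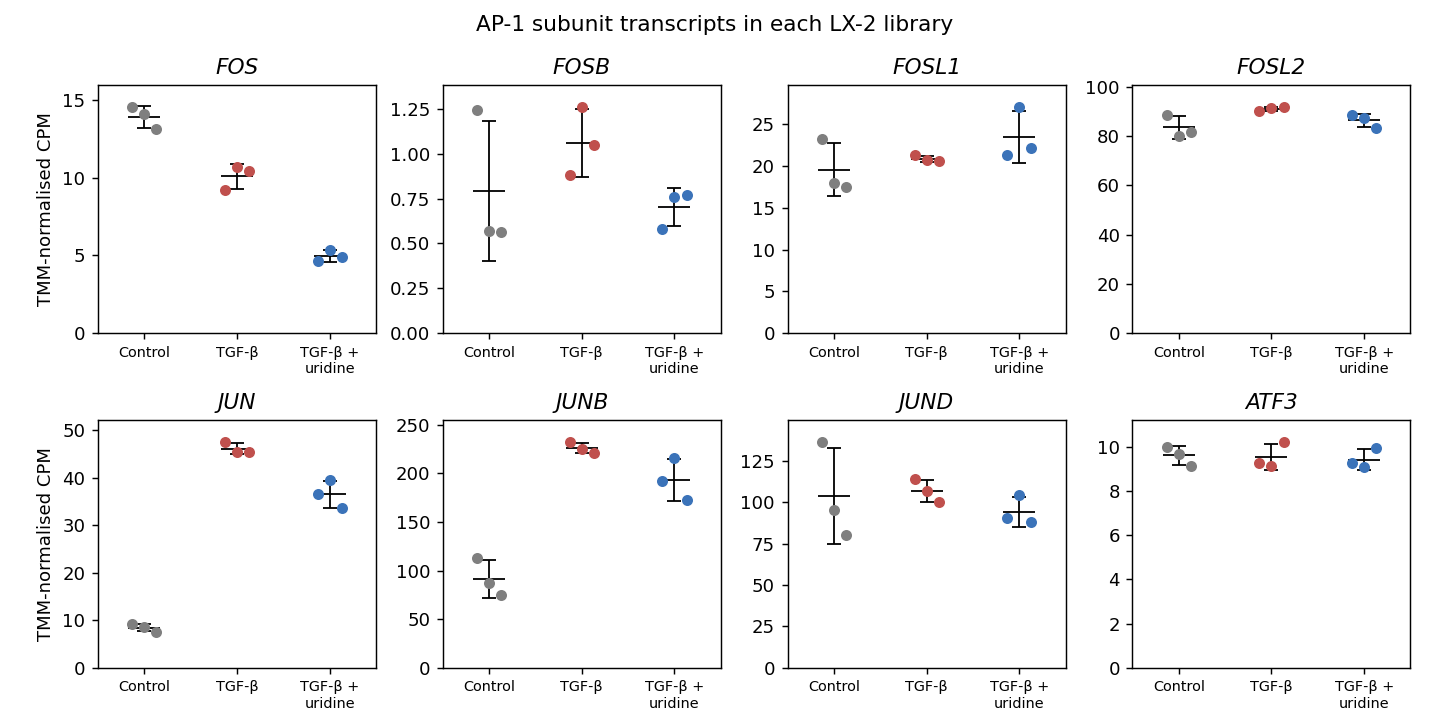
TMM-normalised CPM (y axis, from 0, a scale of its own in each panel) of the 8 subunits in the 3 libraries of each group, with points for libraries and bars for mean and SD. JUN and JUNB sit higher in both TGF-β groups than in control, and FOS steps down from 13.2 to 14.5 in control to 4.63 to 5.36 in TGF-β + uridine.

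The first comparison asked what TGF-β did to these transcripts. TGF-β raised JUN, the prototype JUN subunit, 5.47-fold and JUNB, a subunit often held to restrain JUN, 2.47-fold, and no subunit fell past the threshold. Thus 2 of 8 subunits were called at an adjusted p under 0.05 (edgeR's quasi-likelihood test, adjusted over all tested genes), beside 3.38% of all tested genes. Values within a gene are given as CPM after TMM scaling, and fold changes as log2 values from the fitted model.

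JUN measured 9.12, 8.55 and 7.63 CPM in the control libraries. In the TGF-β libraries it measured 47.5, 45.5 and 45.5 CPM. The groups were far apart, and each TGF-β library held at least 1866 reads of JUN where no control library held more than 364. The log2 fold change was 2.45 (SE 0.12, 95% interval 2.18 to 2.72, adjusted p = 1.56e-05), the sixth smallest p among the tested genes.

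JUNB measured 113, 86.8 and 74.8 CPM in control and 232, 225 and 221 CPM after TGF-β. The control libraries varied by 21.5% (coefficient of variation) and the TGF-β libraries by 2.43%, and they did not overlap. Before TMM scaling the control libraries lay closer together, between 47.3 and 50.7 FPKM. The log2 fold change was 1.30 (SE 0.16, 95% interval 0.95 to 1.66, adjusted p = 0.00203). Without control replicate 1, which gave the highest of the control values, it was 1.48.

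FOS, the inducible partner of JUN proteins, measured 14.5, 14.1 and 13.2 CPM in control and 9.21, 10.7 and 10.4 CPM after TGF-β. Every TGF-β library was below every control library. The log2 fold change of −0.46 (SE 0.14) was not called (adjusted p = 0.161 in edgeR). It passed the threshold with voom and sample quality weights (adjusted p = 0.000439), and with the GC slope of each library as a covariate (0.00607), settings that called 34.1% and 20.3% of all genes.

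The remaining subunits did not pass the test. FOSB, another inducible FOS protein, measured 1.24, 0.572 and 0.566 CPM in control and 0.880, 1.26 and 1.05 CPM after TGF-β, with a log2 fold change of 0.43 (SE 0.38). The highest control library was control replicate 1, and the groups overlapped. Without that library the log2 fold change of FOSB was 0.89, again not called. FOSL1 and FOSL2, FOS-related proteins that are made later and persist longer, had log2 fold changes of 0.09 (SE 0.15) and 0.12 (SE 0.08).

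JUND, the subunit that is abundant in resting cells, measured 136, 95.1 and 80.5 CPM in control and 114, 107 and 100.2 CPM after TGF-β. All TGF-β values lay within the control range, and the log2 fold change was 0.04 (95% interval −0.37 to 0.45), or −0.11 to 0.28 with 1 library left out. ATF3, a stress-induced partner of JUN proteins, lay between 9.14 and 10.0 CPM in control and between 9.15 and 10.2 after TGF-β, with a log2 fold change of −0.01 (95% interval −0.32 to 0.30). Libraries of the 2 groups did not overlap for 4 of 8 subunits (JUN, JUNB and FOSL2 higher, FOS lower), beside 17.7% of all tested genes. On the FPKM scale, without TMM scaling, they were again 4 (20.4% of all tested genes), with FOSL1 in place of FOSL2.

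**Figure D2:**
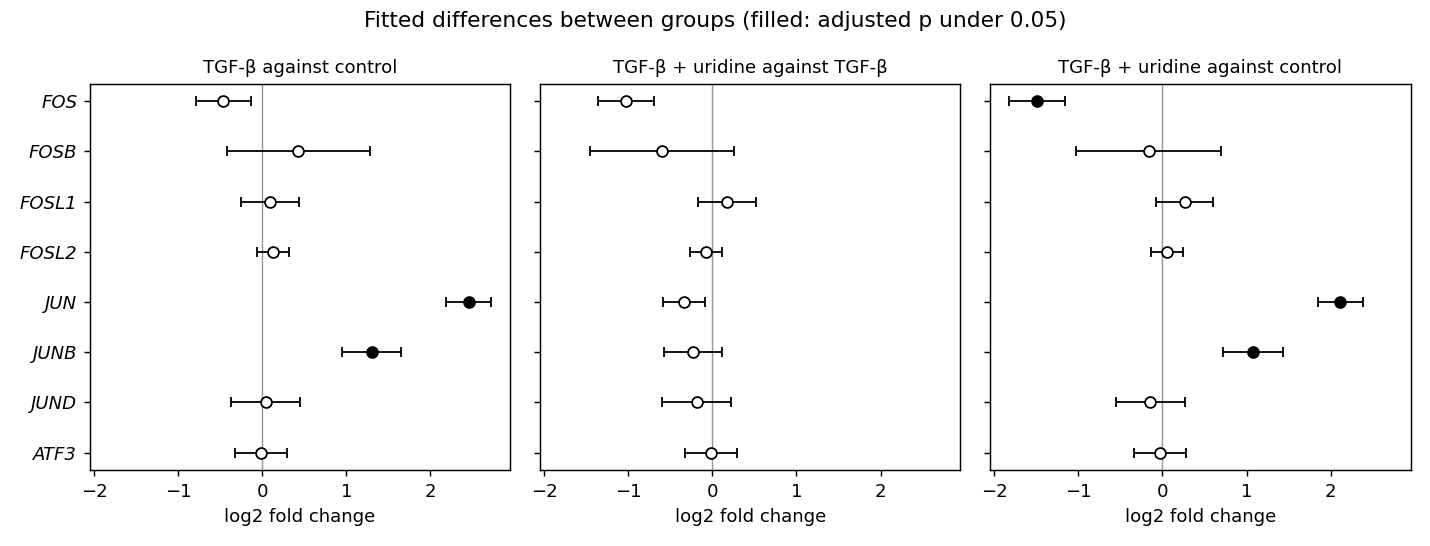
Log2 fold change (x axis) of each subunit in the 3 comparisons, with 95% intervals from edgeR's fit as bars and filled points for an adjusted p under 0.05. JUN and JUNB are filled against control in both TGF-β groups, FOS is filled in TGF-β + uridine against control, and no point is filled in TGF-β + uridine against TGF-β.

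The second comparison asked what uridine changed in TGF-β-treated cells. FOS was lower by a factor of 2.03 with uridine. In CPM, FOSB, FOSL2, JUN and JUNB were lower in every uridine library than in any TGF-β library by smaller amounts. Such a lack of overlap, in either direction, was found for 25.6% of all tested genes. None of the 8 subunits reached an adjusted p under 0.05 in edgeR, beside 0.0448% of all tested genes (6 of 13384, all lower). At an unadjusted p under 0.05 there were 2 of 8, FOS and JUN, both lower, beside 8.79% of all tested genes. DESeq2 called 1 subunit, FOS, beside 0.563% of all genes in the table. Voom with sample quality weights called 3, beside 16.1% of tested genes, and the GC slope covariate called 4, beside 19.1%.

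FOS measured 4.63, 5.36 and 4.92 CPM in the TGF-β + uridine libraries, against 9.21, 10.7 and 10.4 CPM with TGF-β alone. In reads this was 199 to 218 against 366 to 441. The uridine libraries were the lowest of all 9 and overlapped with neither of the other groups. The log2 fold change was −1.02 (SE 0.15, 95% interval −1.36 to −0.69). Its unadjusted p, 6.49e-05, was the eighth smallest of all tested genes in edgeR, and its adjusted p was 0.0992. An exact permutation test of the CPM values gave p = 0.1, the smallest that 3 libraries against 3 allow.

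The call on FOS depended on the processing. Over 21 alternatives the log2 fold change was between −1.11 and −0.76, and 8 of them gave an adjusted p under 0.05. These included DESeq2 (adjusted p = 1.17e-06), a fit of only the 2 groups compared (0.0145) and limma on log2(FPKM + 1) (0.0125). The GC slope covariate (7.19e-05) and the edgeR fit without control replicate 1 (0.00873) were also among them. That library is not in this comparison but enters the shared estimate of the spread. In the order given, these settings called 0.563%, 2.44%, 3.89%, 19.1% and 1.98% of all genes in each fit, beside 0.0448% in the main fit. With the replicate number as a block the adjusted p of FOS was 0.351, and whether the numbers pair the libraries is not known.

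**Figure D3:**
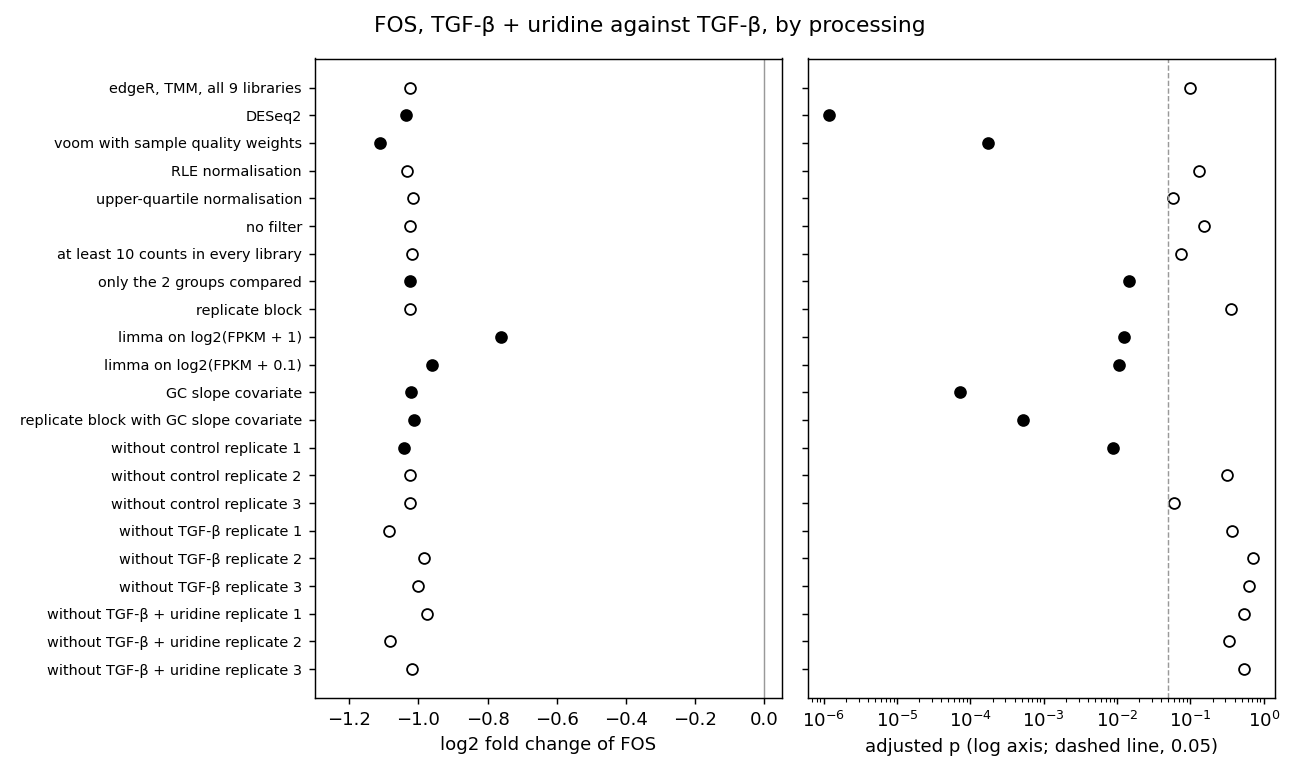
FOS in TGF-β + uridine against TGF-β under each setting on the y axis, with the log2 fold change at left and the adjusted p at right (log axis, dashed line at 0.05), filled points being below 0.05. The log2 fold change stays between −1.11 and −0.76, while the adjusted p ranges from 1.17e-06 to 0.722.

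JUN measured 36.5, 39.5 and 33.7 CPM with uridine against 47.5, 45.5 and 45.5 CPM with TGF-β alone. The groups did not overlap, and the uridine libraries all stayed above the highest control library, at 9.12 CPM. The log2 fold change was −0.34 (SE 0.11, 95% interval −0.59 to −0.08), and edgeR's p was 0.0151 before and 0.405 after adjustment. The GC slope covariate brought the adjusted p to 0.00228 at a similar log2 fold change of −0.33, in a fit that called 19.1% of all genes.

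JUNB measured 192, 215 and 172 CPM with uridine, each below the lowest TGF-β value of 221. Its log2 fold change was −0.23 (95% interval −0.57 to 0.12, adjusted p = 0.795). At a similar size JUNB was called with the GC slope covariate (−0.21, adjusted p = 0.00156), with that covariate and the replicate block (0.00762) and with voom (0.0188). In the same order, these fits called 19.1%, 15.5% and 16.1% of all genes. FOSB measured 0.581, 0.758 and 0.768 CPM, below the lowest TGF-β value of 0.880, with a log2 fold change of −0.60 and a wide 95% interval of −1.45 to 0.26 that goes with its 25 to 34 reads per uridine library.

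FOSL2 lay between 83.5 and 88.6 CPM with uridine and between 90.2 and 91.7 CPM without, a log2 fold change of −0.07 (95% interval −0.26 to 0.11). JUND lay between 87.8 and 104 CPM with uridine and overlapped the TGF-β group, at −0.18 (95% interval −0.59 to 0.23). It was called with the GC slope covariate (−0.16, adjusted p = 0.0456), in a fit that called 19.1% of all genes. FOSL1 alone had a positive fitted value, 0.17 (95% interval −0.17 to 0.52). ATF3 was at −0.02 (95% interval −0.33 to 0.29). In CPM the groups did not overlap for 5 of 8 subunits (FOS, FOSB, FOSL2, JUN and JUNB), all lower with uridine, beside 25.6% of all tested genes in either direction. On the FPKM scale they did not overlap for 6, beside 29.2% of all tested genes. There FOSL2 overlapped (9.27 to 10.47 against 9.95 to 10.503 FPKM), JUND was lower (48.6 to 50.2 against 52.3 to 57.2 FPKM) and FOSL1 was higher in each uridine library (12.98 to 14.76 against 12.10 to 12.17 FPKM).

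The third comparison set TGF-β + uridine against control and shares its libraries with the other comparisons, so that it adds no independent values. Here 3 of 8 subunits were called, beside 5.33% of all tested genes. JUN was higher, with a log2 fold change of 2.12 (SE 0.12, adjusted p = 3.96e-05), as was JUNB, at 1.08 (SE 0.16, adjusted p = 0.00502). FOS was lower at −1.49 (SE 0.15, adjusted p = 0.000656), a factor of 2.81. JUN, JUNB and FOS kept these calls in 21 of 21 alternatives. FOSL1 had a log2 fold change of 0.26 (SE 0.15, adjusted p = 0.458) and was called in 5 alternatives, among them the GC slope covariate (adjusted p = 0.0108), which called 31.1% of all genes. FOSB (−0.17), FOSL2 (0.05), JUND (−0.14) and ATF3 (−0.03) were not called, and without control replicate 1 the values of FOSB and JUND were 0.28 and 0.08. Groups did not overlap for FOS, JUN and JUNB, 3 of 8, beside 19.7% of all tested genes. On the FPKM scale they also did not overlap for FOSL1, which was higher, beside 25% of all tested genes.

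Because AP-1 works as pairs, the makeup of the subunit transcripts was also described. The summed level of the 8 subunits was 135 ± 3.76 FPKM in control, 222 ± 2.28 after TGF-β and 197 ± 3.81 with uridine added, and no library of one group reached the range of another. The JUN family made up 77.0 ± 2.64% of the sum in control, 86.1 ± 0.563% after TGF-β and 84.8 ± 0.729% with uridine. The summed FOS family had means of 27.7, 27.5 and 26.5 FPKM, with overlapping ranges, while its share was 20.5% in control, 12.4% after TGF-β and 13.5% with uridine.

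Within the JUN family, JUNB made up 36.3 ± 0.458% of all subunit transcripts in control, 55.1 ± 0.283% after TGF-β and 54.1 ± 1.18% with uridine. JUND made up 38.8%, 24.7% and 25.0% in the same order. The ratio of JUNB to JUND was thus 0.939 ± 0.0556 in control, 2.23 ± 0.0902 after TGF-β and 2.16 ± 0.0882 with uridine. Both TGF-β groups overlapped in this ratio and were apart from control.

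Within the FOS family, FOS made up 4.92 ± 0.747% of all subunit transcripts in control, 2.15 ± 0.220% after TGF-β and 1.21 ± 0.0845% with uridine. There were 1.73 ± 0.217 FOSL1 transcripts for each FOS transcript in control, 2.56 ± 0.259 after TGF-β and 5.83 ± 0.352 with uridine, on the FPKM scale. The ratio of JUN to FOS was 0.390 ± 0.0154 in control, 2.97 ± 0.320 after TGF-β and 4.76 ± 0.338 with uridine. The 3 groups did not overlap in either ratio. These ratios are of transcripts, and protein levels were not measured in these files.

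**Figure D4:**
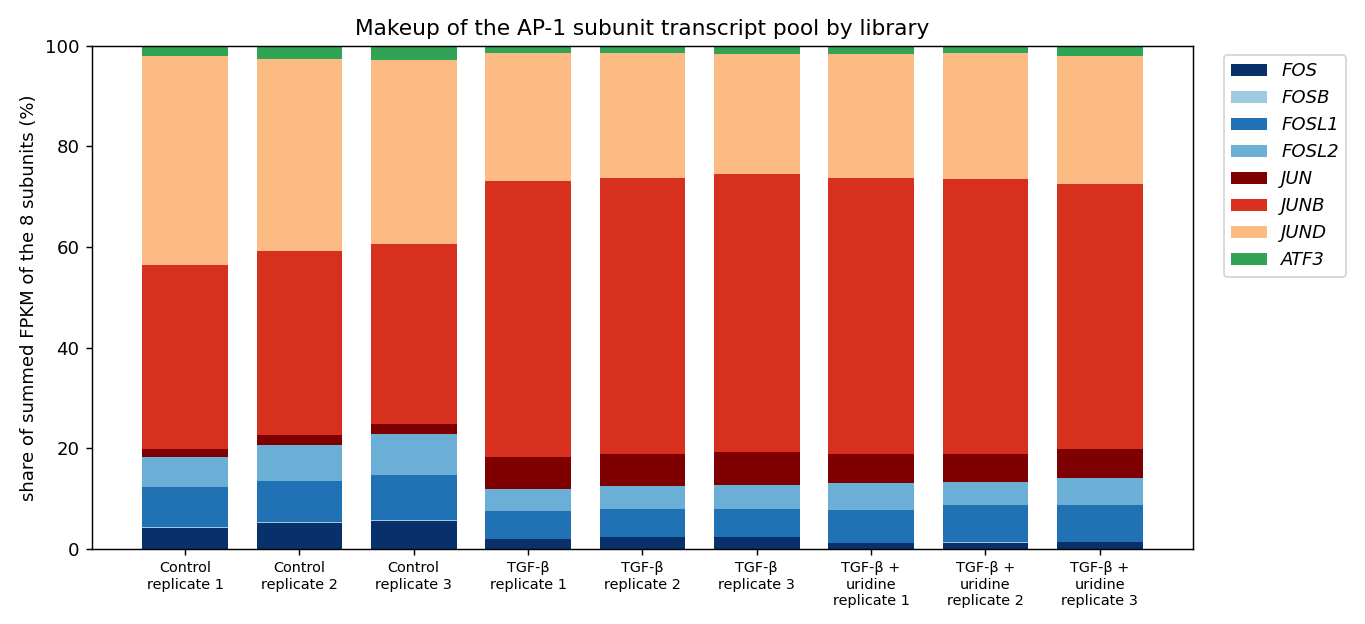
Share of each subunit in the summed FPKM of the 8 subunits (y axis, percent) for each of the 9 libraries. JUNB takes 35.8% to 36.7% in the control libraries and 52.7% to 55.4% in the libraries of both TGF-β groups, and the FOS band narrows from control to TGF-β + uridine.

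The subunits differed in which other transcripts followed a similar course over the 9 libraries. Similarity was taken as Pearson's r of log2 CPM over 9 libraries, which share treatments, depth and GC bias, so that it only describes these libraries. JUN was most like TGFBI (r = 0.999), a secreted matrix protein named for its induction by TGF-β, followed by ABLIM3 and CLDN14-AS1 (both 0.998). JUNB was most like ITGA5 (0.998), the integrin chain that binds fibronectin, then S100A2 and TP53I3 (both 0.996). JUN and JUNB had an r of 0.978 with each other.

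FOS followed other genes: STMN1 (r = 0.989), a protein that destabilises microtubules, PRSS23 (0.989) and MTURN (0.975). FOSL1 was most like ATP5MJ (0.968), BABAM2 (0.966) and TUSC1 (0.966). FOSL2 was most like RAB11FIP5 (0.946), DDAH2 (0.934) and LAMB3 (0.929), and FOSB like KLC4 (0.944), FUNDC2 (0.932) and LENG1 (0.906). JUND was most like DES, CRIP2 and PMF1 (each 0.994), and 732 genes had an r above 0.9 with it, against 107 for FOS and 0 for ATF3. The closest genes to ATF3 were ZNF821 (0.863), CHST2 (0.805) and ANO8 (0.800).

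Other basic leucine zipper proteins that can pair with AP-1 subunits were measured alongside. After TGF-β, 1 of 10 tested partners rose and none fell, beside 3.38% of all tested genes called. The median over the list was 0.01, beside −0.05 over all tested genes. With uridine, none of the 10 was called in edgeR and 1 had an unadjusted p under 0.05, beside 8.79% of all tested genes. This was MAFF, a small MAF protein, with a log2 fold change of −0.67 (SE 0.23, adjusted p = 0.428). MAFG, another small MAF protein, was next at 0.17 (SE 0.10). DESeq2 called none of them either. Against control, the uridine group had 1 higher call and 1 lower, beside 2.89% and 2.44% of all tested genes. The lower one was MAFF (−1.001, adjusted p = 0.0436). The count of 2 was 1 in each fit without a library other than control replicate 1. It was 3 without that one, where 17.6% of all genes were called. JDP2, a repressor that pairs with JUN proteins, was at 0.03 after TGF-β and −0.08 with uridine.

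The kinases and factors that act on AP-1 genes showed no call. Of 25 tested genes, which include MAPK3, MAPK8, PRKACA, CREB1, SRF and ELK1, 0 passed an adjusted p under 0.05 in edgeR in any of the 3 comparisons. At an unadjusted p under 0.05 there were 2 after TGF-β, beside 12.1% of all tested genes, and 1 with uridine, beside 8.79%, and DESeq2 called 0 in each. Without control replicate 1 the counts were 3 after TGF-β, 1 with uridine and 4 for uridine against control. That fit called 7.93%, 1.98% and 17.6% of all its tested genes in the same order. The smallest p after TGF-β belonged to MRTFA, a cofactor of serum response factor, at 0.56 (SE 0.15, adjusted p = 0.0847), followed by SRF itself at 0.44 (SE 0.15, adjusted p = 0.222). With uridine MEF2D, a MADS box factor that acts on the JUN promoter, was at −0.35 (SE 0.12, adjusted p = 0.418). CREB1, the factor phosphorylated by the cAMP-dependent kinase, was at 0.80 (SE 0.38, adjusted p = 0.614). CREB1 was scarce, with 29 to 37 reads per TGF-β library and 41 to 87 per uridine library. PRKACA, which encodes a catalytic subunit of the cAMP-dependent kinase, was at −0.13 after TGF-β and 0.07 with uridine.

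Among 27 other immediate-early genes, 5 rose and 1 fell after TGF-β, beside 2.42% of all tested genes that rose and 0.964% that fell. Among those called, the largest changes were those of CCN2 (2.78, SE 0.38) and CCN1 (1.57, SE 0.09), secreted matrix-associated proteins, followed by IER3 (1.22, SE 0.15), which affects cell survival, and KLF4 (0.87, SE 0.13), a zinc finger factor. KLF10, also a zinc finger factor, rose by 0.60, and CEBPD, a C/EBP factor, fell by 0.71. The list's median was 0.05.

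With uridine none of the 27 was called in edgeR, 3 in DESeq2 and 2 in edgeR without control replicate 1. The latter 2 settings called 0.563% and 1.98% of all genes. At an unadjusted p under 0.05 there were 2 higher and 5 lower, beside 8.79% of all tested genes. CCN1 was at −0.46 (SE 0.08, adjusted p = 0.164) and SGK1, a kinase induced by serum and glucocorticoids, at −0.72 (SE 0.14, adjusted p = 0.169). EGR1, a zinc finger factor whose promoter carries serum response elements, had a log2 fold change of −1.46 (SE 0.33, adjusted p = 0.251), and is named here after its value was seen. It had few reads, 95 to 99 per TGF-β library and 22 to 56 per uridine library. Against control, the uridine group had 4 higher and 2 lower calls, beside 5.33% of all tested genes. The largest of these were CCN2 (2.05, SE 0.37), CCN1 (1.11, SE 0.09), IER3 (0.89, SE 0.15) and DUSP1, a phosphatase that inactivates MAP kinases, at −0.84 (SE 0.11, adjusted p = 0.00388). These 6 calls were 2 without control replicate 2, 2 without TGF-β + uridine replicate 1 and 3 without replicate 3 of that group.

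Genes that AP-1 is known to act on were also followed. Of 23 tested, 5 were called higher and 0 lower after TGF-β, beside 2.42% and 0.964% of all tested genes. The median log2 fold change was 0.58, beside −0.05 over all genes. The calls were 10 without control replicate 1, in a fit that called 7.93% of all its tested genes. IL11, a cytokine, had the largest change, 4.77 (SE 0.68, adjusted p = 0.0052), from 0 to 15 reads per control library to 213 to 266 reads. PLAU, the urokinase-type plasminogen activator, rose by 2.28 (SE 0.13), and ITGA5 by 1.21 (SE 0.13). PLAUR, the urokinase receptor, rose by 0.80.

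With uridine 1 of the 23 was called, beside 0.0448% of all tested genes. This was PLAU, which was lower by 1.18 on the log2 scale (SE 0.12, adjusted p = 0.0207). PLAU went from 33.8 CPM with TGF-β to 15.0 CPM with uridine, and stood at 6.94 CPM in control. CCL2, a chemokine named after its value was seen, was at 1.06 (SE 0.20, adjusted p = 0.164). PLAUR was at 0.0025 (SE 0.13), and the list's median was −0.17. The count of 1 was 4 without control replicate 1 (where 1.98% of all genes were called), 1 without control replicate 3 and 0 without any one of the other libraries. Against control 8 of 23 were called higher and 0 lower in the uridine group, beside 2.89% and 2.44% of all tested genes. Among them were IL11 (4.95, SE 0.69) and LIF, a cytokine of the same family as IL11 (1.12, SE 0.24). MMP3, a matrix protease, was also called, but had only 1 to 2 reads per control library and 12 to 18 with uridine, so no fold is given. This count of 8 was 4 without control replicate 2 and 5 without TGF-β + uridine replicate 2 or 3.

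Stress genes were listed around ATF4, a factor that also acts on ATF3. The list holds ATF4 itself and XBP1, so not all of its genes are targets of ATF4. It showed no call among 15 tested in any of the 3 comparisons in edgeR. At an unadjusted p under 0.05 there was 1 after TGF-β and 3 with uridine, beside 12.1% and 8.79% of all tested genes, and DESeq2 called 0 in each. Without control replicate 1 the counts were 1, 2 and, for uridine against control, 4, beside 7.93%, 1.98% and 17.6% of all genes tested in that fit. XBP1, a factor of the unfolded protein response, had the smallest p after TGF-β (0.39, SE 0.10, adjusted p = 0.082), followed by DDIT4, an inhibitor of mTOR signalling (0.16, SE 0.11). With uridine DDIT4 had the smallest (−0.43, SE 0.12, adjusted p = 0.302), followed by XBP1 (−0.36, SE 0.10). Against control, the uridine group had DDIT3, a C/EBP factor of stressed cells, at −0.55 (SE 0.21, adjusted p = 0.207) and DDIT4 at −0.28 (SE 0.11). ATF4 was at −0.09 after TGF-β and 0.18 with uridine. ATF3 itself lay between 9.07 and 10.2 CPM in all 9 libraries.

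TGF-β response genes were followed as well. This list was chosen with earlier results of these data known, so it is no independent check of the treatment. Of 17 tested, 10 rose and 0 fell after TGF-β, beside 2.42% and 0.964% of all tested genes, among them TGFBI (2.84, SE 0.11), CCN2 and PMEPA1 (2.59, SE 0.09), an inhibitor of SMAD signalling. The median was 0.96. With uridine 0 of 17 were called in edgeR, and the median was −0.11. At an unadjusted p under 0.05, 0 were higher and 2 lower, beside 8.79% of all tested genes in either direction. TGFBI was one of these (−0.42, SE 0.10, adjusted p = 0.261). DESeq2 called 1 of the 17, beside 0.563% of all genes, and edgeR without control replicate 1 called 2, beside 1.98%. Against control 12 of 17 were called higher in the uridine group, beside 2.89% of all tested genes. Among them were PMEPA1 (2.45, SE 0.09), TGFBI (2.42, SE 0.11) and CCN2. CSF1R, the leukocyte marker named above, rose by 2.04 (SE 0.18, adjusted p = 0.000405) after TGF-β, while LYZ and CD163 remained at or near 0.

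**Figure D5:**
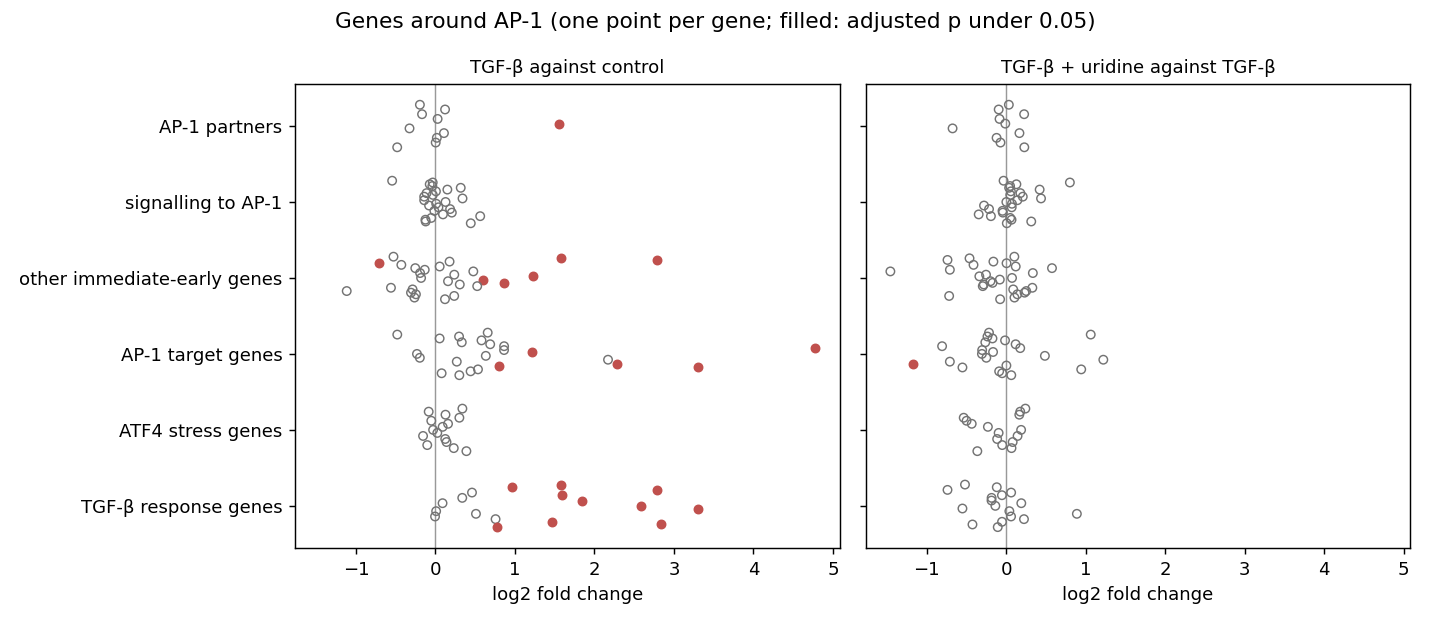
Log2 fold change (x axis) of each tested gene of 6 lists around AP-1 (rows), after TGF-β (left) and with uridine added (right), with filled points for an adjusted p under 0.05 in edgeR. Filled points at left lie in 4 lists and in 1 list, AP-1 target genes, at right, where the only one is PLAU.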

How the data were processed

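RNA of 9 LX-2 libraries (3 per group) was measured. The authors deposited counts, whole numbers of reads per gene symbol without normalization, and FPKM, the same counts scaled to library total and to 1 length for each gene (largest ratio of the implied lengths between libraries, 1). Per the submitters' processing notes, fastp, HISAT2, HTSeq and R 3.2.0 were used with build GRCh38.p13. Strand use in counting is not given in the sources used here. Groups come from the sample labels.

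Counts were tested with edgeR 4.0.16 in R 4.3.3 (filterByExpr, TMM scaling, then glmQLFit with glmQLFTest on all 9 libraries, two-sided, Benjamini-Hochberg over 13384 genes, called at an adjusted p under 0.05), after the code had been tested on simulated data. Standard errors come from the fitted value and its F statistic. The study's methods name no test for these data. Ratios and shares used FPKM. The exact permutation test is two-sided. GC content comes from GENCODE v29 transcripts (92.0% of tested genes). Promoter sequences are from RefSeq and primers from the study's primer list.

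Alternatives were DESeq2 1.42.0, voom with sample quality weights and limma 3.58.1 on log2(FPKM + 1) or log2(FPKM + 0.1) where the mean FPKM reached 0.5, other normalizations and filters, only the 2 groups compared, GC slope as a covariate, the replicate number as a block, and each library left out. The overlap of groups in FPKM was added after seeing the data. The 8 subunits and all gene lists were chosen with earlier results of these data known. Named genes are the 8 subunits and, per list, those called with uridine against TGF-β, the 4 largest calls against control, or else the 2 smallest p. Other named list genes were added for their role or after their values were seen. Some list genes that this rule would name are counted but not reported here by name.

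Deviations of libraries with the same replicate number correlated between −0.21 and 0.56 over genes, and not every pair exceeded 0.1. Those of libraries with different numbers correlated between −0.66 and 0.63. With 3 libraries a group, these correlations cannot decide whether the numbers pair the libraries. The labels give the numbers no meaning, so the main fit did not treat them as pairs. The control and TGF-β libraries also serve in more than 1 comparison. Library totals were similar, and counts limit precision most for FOSB, with 24 to 52 reads per library.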

Additional observations from a re-analysis of the deposited data

How the results depend on the processing

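JUN and JUNB (TGF-β against control and TGF-β + uridine against control) and FOS (TGF-β + uridine against control) were called in 21 of 21 alternatives each. With 9 fits that each left out a library, the number of subunits called was 2 in each for TGF-β against control, 0 to 1 for TGF-β + uridine against TGF-β and 3 in each for TGF-β + uridine against control, the 1 being FOS without control replicate 1.

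For TGF-β against control, voom with sample quality weights called 6 subunits in place of 2, and the GC slope covariate called 3, alone and with the replicate block, the added one being FOS. For TGF-β + uridine against TGF-β, where edgeR called 0, DESeq2, the fit of only the 2 groups, and limma on log2(FPKM + 1) and on log2(FPKM + 0.1) each called 1, voom called 3, the GC slope covariate 4, and the replicate block with the GC slope covariate 3. For TGF-β + uridine against control, voom called 5 in place of 3 (39.1% of all genes), and 4 settings called 4 by adding FOSL1: limma on both FPKM scales and the GC slope covariate alone and with the replicate block. These settings also called more of the whole table, and the cause was not tested. For TGF-β + uridine against TGF-β, 317 genes were called with only the 2 groups, 2153 with voom and 2554 with the GC slope covariate, in place of 6. There limma called 385 genes on log2(FPKM + 1) and 378 on log2(FPKM + 0.1). For TGF-β + uridine against control, limma called 14.3% and 14.1% of its tested genes on these scales, beside 5.33% in the main fit. The replicate block alone left the counts of subunits at 2, 0 and 3. Whether the replicate numbers pair the libraries is not known.

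Fitted values near 0 changed sign, none of them called. ATF3 ranged from −0.0624 to 0.0168 over the fits that left out a library for TGF-β against control and from −0.0579 to 0.0331 for TGF-β + uridine against TGF-β, where limma gave 0.0138 and 0.0166. JUND ranged from −0.114 to 0.281 for TGF-β against control and from −0.298 to 0.0808 for TGF-β + uridine against control. FOSB in the latter was 0.113 with voom and ranged from −0.361 to 0.281. FOSB, below the FPKM minimum, was not tested with limma. With 3 libraries a group, an exact permutation test cannot go below 0.1.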
